A study of Drosophila melanogaster with 3 samples.

Results

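The 10 Niemann-Pick genes of the fly, Npc1a, Npc1b and Npc2a to Npc2h, were examined for binding of SREBP, a transcription factor whose mammalian relatives control sterol and fatty acid synthesis. They were taken by name from a fixed list, and all 10 were found among the 13945 protein-coding genes annotated on the 6 chromosome arms. The Npc1 family had 2 members and the Npc2 family 8. Binding was measured by ChIP-seq (sequencing of chromatin fragments pulled down with the factor) in 1 group of 3 biological replicates of whole L3 larvae at the wandering stage, shortly before they pupate, males and females together. The larvae came from a transgenic line that carries SREBP with GFP at its N terminus, and chromatin was precipitated through the GFP with an anti-GFP antibody. The antibody field of the labels instead names HLH106, another name of SREBP. All 3 replicates share this line and stage, there was no second genotype or treatment, and control libraries were not used here. Whole larvae mix all tissues, so a peak cannot be placed in a tissue, and no expression values were used here that could check the tissue by its markers.

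NPC1 is a membrane protein of late endosomes and lysosomes, and NPC2 is a soluble protein of their lumen. Together they move sterol released from digested lipoproteins out of the lysosome, with NPC2 handing the sterol to NPC1. Flies cannot make sterols and take them from food, and they use them for membranes and as the starting material of the moulting hormone ecdysone. Fly SREBP is known to act on fatty acid synthesis and, unlike the mammalian proteins, its release is not controlled by sterol.

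A gene was given every peak whose summit lay in its body or within 5 kb of a transcription start site (TSS) of any of its transcripts. Peaks were read from 5 lists on the dm6 build, namely the authors' optimal set of 7993 peaks, their pooled list and the 3 replicate lists, each of the last 4 with 30000 peaks. Within a list, peaks were ranked by the peak caller's signal value, rank 1 being the strongest. Library depth is unknown, as only peaks were deposited in these lists. The replicate lists differed in part. Of the optimal summits, 97.1%, 95.4% and 99.1% had a partner within 150 bp in replicates 1, 2 and 3. Over each whole replicate list, the share of summits with no partner within 150 bp in the other 2 replicates was 36.9% for replicate 1, 34.4% for replicate 2 and 30.6% for replicate 3. With 1 group there was nothing to test between conditions. Counts over the 10 genes are set beside the same share of all protein-coding genes where one was obtained, as a description.

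Of the 10 Niemann-Pick genes, 5 had an optimal peak by this rule, against a background of 55.7% of all protein-coding genes. They were Npc2a, Npc2b, Npc2d, Npc2e and Npc2f, so neither Npc1 gene and 5 of the 8 Npc2 genes were included. The members' share was near the background. Among genes whose region was no longer than the longest of the members, the background was 52.6%. The 5 genes had 7 distinct optimal peaks, since 1 peak counted for both Npc2d and Npc2e. Few of these peaks stood at the genes' own promoters. Only Npc2a had an optimal summit within 500 bp of a TSS (1 of 10, background 28.7%), and no optimal summit lay inside the body of a member (0 of 10, background 16.0%). The gene body background covers genes of all lengths, and no share for genes of like length was computed. Npc2a, Npc2c, Npc2d, Npc2e, Npc2g and Npc2h were only 651 to 1017 bp long. When each peak counted only for the protein-coding gene with the nearest TSS, Npc2a, Npc2b and Npc2d kept a peak (3 of 10, background 29.6%). The 3996 strongest optimal peaks reached Npc2a and Npc2f (2 of 10, background 39.3%). A limit of 2 kb in place of 5 kb left 4 members (background 40.8%), and 10 kb gave 8 (background 70.5%), all but the Npc1 genes.

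**Figure D1:**
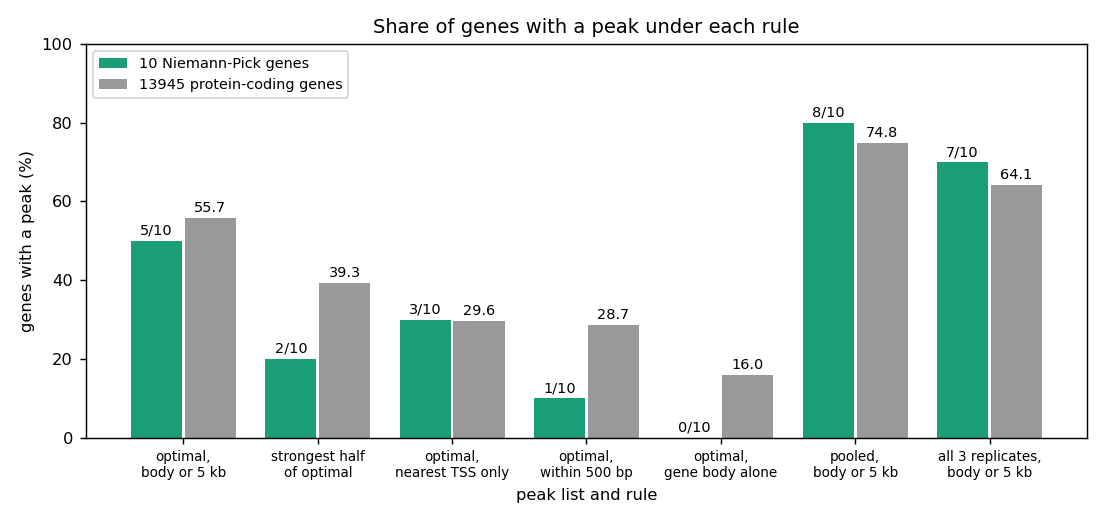
Share of genes with a peak, in percent, for the 10 Niemann-Pick genes (green, with the count above each bar) and all 13945 protein-coding genes (grey, with the percent above each bar) under 7 combinations of peak list and rule. The members' share was 50% against 55.7% for the optimal set, and lay below the background for the promoter and gene body rules, with 1 and 0 members. The backgrounds cover genes of all lengths.

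The 101 bases around a summit are shown for 4 peaks whose nearest protein-coding TSS belongs to a member, and for the strongest peak near any member. They are read from the + strand of the dm6 assembly. Capitals mark the letters of a searched motif, here the E-box CANNTG and, read on the opposite strand, the GATA motif TGATAA.
Npc2a, upstream peak, chr2L:1988073-1988173: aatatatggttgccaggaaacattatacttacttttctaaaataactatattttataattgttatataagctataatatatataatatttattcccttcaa
Npc2b, upstream peak, chr3R:14088867-14088967: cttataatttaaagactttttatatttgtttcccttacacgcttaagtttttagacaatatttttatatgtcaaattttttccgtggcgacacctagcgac
Npc2d and Npc2e, peak between them, chr3R:10054745-10054845: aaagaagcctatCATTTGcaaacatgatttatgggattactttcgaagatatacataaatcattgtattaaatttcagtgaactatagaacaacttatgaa
Npc2g and Npc2h, peak of the pooled list, chr3R:30747202-30747302: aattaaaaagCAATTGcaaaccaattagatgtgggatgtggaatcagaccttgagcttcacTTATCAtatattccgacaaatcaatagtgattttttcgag
Npc2f and Kal1, strongest peak, chr3R:24141176-24141276: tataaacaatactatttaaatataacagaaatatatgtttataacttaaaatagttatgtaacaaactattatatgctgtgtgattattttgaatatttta

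The windows differed in base composition. G+C made up 18.8% of the Npc2a window, 29.7% of that of Npc2b, 26.7% of that between Npc2d and Npc2e and 15.8% of the Npc2f window, against a median of 30.7% over all optimal summits. It made up 33.7% of the Npc2g and Npc2h window. Among the 3 optimal peaks not shown, it was 42.6% and 44.6% at the other peaks of Npc2a and 28.7% at the distant peak of Npc2e. Of 10 motifs searched on both strands within 50 bp of the 7 optimal summits, CANNTG was present at 3, and CATATG, which is also a CANNTG match, at 1. These motifs were found at 31.8% and 3.84% of all optimal summits. The 7 summits had no match of the E-boxes CACGTG and TCACGTGA or of the sterol regulatory element, searched as TCACNCCAC. They also had none of the GATA motif (searched as AGATAA or TGATAA), the DRE motif TATCGATA, the GAGA motif GAGAGAG, the M1BP motif GGTCACACT or the HNF4 motif CAAAGTCCA. The sterol regulatory element was itself rare, at 12 of the 7993 optimal summits (0.15%), and CACGTG was at 46 (0.576%). GATA matches were at 17.1% of them, DRE at 1.44%, GAGA at 0.976%, M1BP at 0.701%, HNF4 at 0.0751% and TCACGTGA at 0.025%. Of the motifs with no match, all but GATA were thus rare at optimal summits in general.

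Among the Npc1 genes, which encode the membrane receptors of the pathway, neither had an optimal peak. Npc1a (FBgn0024320, 2L from 10213812 to 10221216, minus strand), which is needed for sterol traffic in the cells that make ecdysone, had its nearest optimal summit 10076 bp from a TSS. That summit, at rank 6480, lay 400 bp downstream of a TSS of ova, and no pooled summit was nearer. In replicate 2 alone, 5 summits fell near the Npc1a start site. The strongest had rank 8164 and lay 179 bp downstream of a TSS, in the 5' UTR of Npc1a. The next had rank 10490 and lay 314 bp upstream, in the coding sequence of Prosalpha6, a proteasome subunit gene that starts at 10221351 and runs the other way. The others had ranks 15724, 28224 and 29090, and the first of these was 54 bp from a TSS of Bcs1. Replicates 1 and 3 had no summit within the Npc1a region, and their nearest were 17539 and 10126 bp from a TSS. A summit in replicate 2 and in neither other replicate was found for 1 of 10 members and for a background of 2.11% of genes.

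Npc1b (FBgn0261675, X from 20934869 to 20939503, plus strand), which the midgut uses to take up dietary sterol, was 24479 bp from the nearest optimal summit, in an intron of shakB. The pooled list held 1 summit, at rank 18739 and 784 bp upstream of the TSS. It lay nearer to the divergent gene CG11227, 526 bp upstream of that gene's TSS. Replicate 1 had summits at ranks 21714 and 25127, which lay 689 and 2623 bp upstream, and the nearest summits in replicates 2 and 3 were 28702 and 21196 bp away. Npc1b was thus the 1 member with a summit in replicate 1 alone (1 of 10, background 7.36%), and no member had one in replicate 3 alone (0 of 10, background 2.20%).

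Npc2a and Npc2b encode lumenal sterol carriers that act in part redundantly in sterol supply and ecdysone synthesis. Npc2a (FBgn0031381, 2L from 1988290 to 1988940, plus strand) was the member with the most optimal peaks, with 3. Its upstream peak (2L from 1987925 to 1988320) had its summit 167 bp before the TSS and rank 6611 in the optimal set. Its ranks in replicates 1, 2 and 3 were 6336, 8594 and 6067, with a mean of 6999 ± 1388 (SD, n = 3). The peak was weakest in replicate 2, the only one in which it fell outside the 7993 strongest. The same summit lay 365 bp upstream of a TSS of Got2, the mitochondrial aspartate aminotransferase gene, which runs the other way. Replicate 1 also had a stronger summit between these genes, at rank 5555. It lay 358 bp upstream of Npc2a and 174 bp from a TSS of Got2, and it is not part of the mean above. The strongest peak of the Npc2a region was at rank 3103, 1431 bp upstream of Npc2a and 96 bp downstream of a TSS of Got2, in Got2's coding sequence. The replicates ranked it 3541, 2361 and 4089, with a mean of 3330 ± 883 (SD, n = 3). The weakest peak, at rank 7949 and 1628 bp downstream of the Npc2a TSS, lay in an exon of the long non-coding RNA gene CR42874 and held the CATATG match. It ranked 7468, 12657 and 6451 in replicates 1, 2 and 3, and these are the summits nearest to the optimal one. Replicate 2 also had a stronger summit in the same exon, at rank 8295, which lay 1449 bp downstream of the Npc2a TSS and beyond the 150 bp limit for a match.

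Npc2b (FBgn0038198, 3R from 14089517 to 14092425, plus strand) had 1 optimal peak (3R from 14088719 to 14089114), with its summit 600 bp upstream of the first of 2 TSSs and rank 6534. No TSS of another protein-coding gene lay within 5 kb of it, and it was given to Npc2b alone, whereas an optimal peak was given to a median of 2 genes. The gene upstream is foxo, the transcription factor of insulin signalling, which ends at 14087978. A summit within 150 bp was found at rank 4734 in replicate 1 and 5979 in replicate 3, and their mean was 5356 ± 880 (SD, n = 2). Replicate 2 had no summit that near. Its closest was 163 bp away, at rank 15787 and 437 bp upstream of the TSS. A second, internal TSS of Npc2b, at 14090762, had a pooled summit 6 bp from it, at rank 24892, and a summit in replicate 1 at 18 bp and rank 24506.

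**Figure D2:**
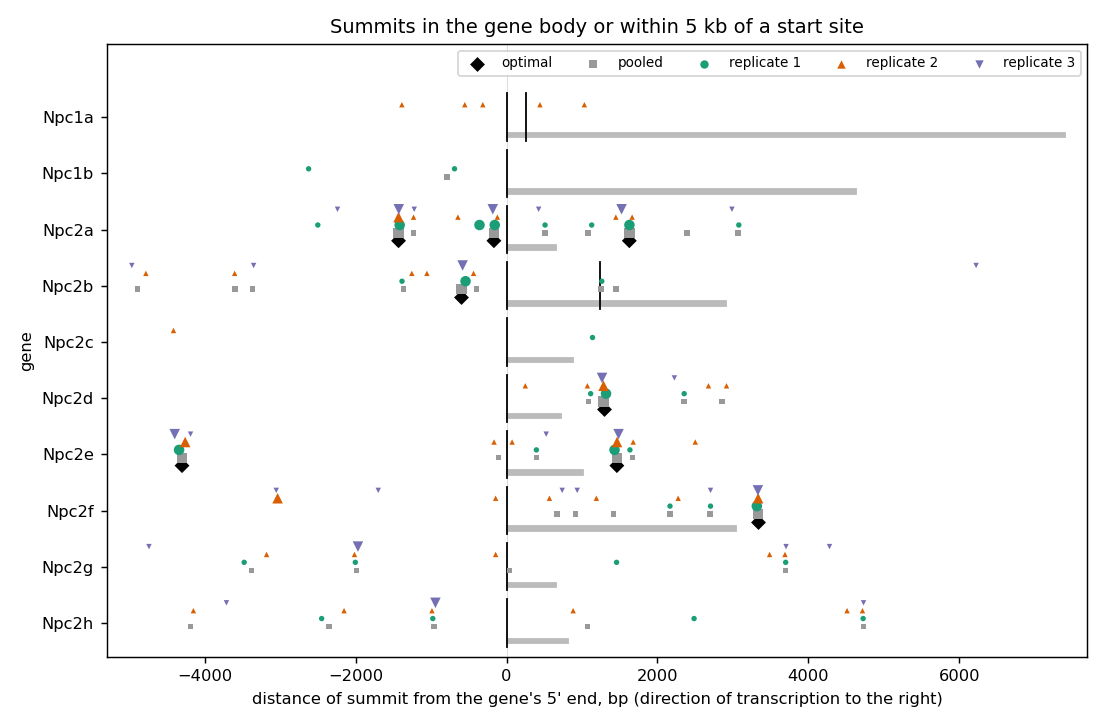
Summits given to each gene, by distance in bp from its 5' end, with transcription to the right. Grey bars are gene bodies, black ticks TSSs, and colours and shapes the 5 lists, with large symbols for peaks among the 7993 strongest of their list. Npc2a has optimal summits 1431 and 167 bp before its start site and 1628 bp after it, and Npc2b has its summit 600 bp before. Those of Npc2d, Npc2e and Npc2f stand beyond the 3' end or, for the other summit of Npc2e, 4301 bp upstream.

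Npc2c, Npc2d and Npc2e lie next to each other on 3R with no protein-coding gene between them. Npc2e is one of the members whose products are known to bind bacterial cell wall compounds. Npc2e (FBgn0051410, from 10053332 to 10054348, plus strand) and Npc2d (FBgn0037782, from 10055356 to 10056083, minus strand) point towards each other across a gap of 1007 bp. An optimal peak (from 10054723 to 10054826, rank 5727) lay in that gap, 447 bp past the end of Npc2e and 561 bp past the end of Npc2d. Measured from the TSSs, its summit was 1288 bp downstream in Npc2d and 1463 bp downstream in Npc2e. Replicates 1, 2 and 3 ranked it 5618, 7248 and 4869, with a mean of 5912 ± 1216 (SD, n = 3). All 3 replicates placed it among their 7993 strongest peaks, with summits at -31, 2 and 22 bp from the optimal one. The nearest TSS of any kind was that of the antisense RNA gene CR44192, which overlaps Npc2e, at 497 bp.

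Npc2e also took in a peak at rank 5180 (from 10048833 to 10049228), whose summit was 4301 bp upstream of its TSS. This peak stood at the divergent promoters of ohgt and CG12811, 168 bp from the former, and was given to 6 protein-coding genes by the rule. It ranked 5784, 4901 and 4068 in the replicates, a mean of 4918 ± 858 (SD, n = 3). Replicate 3 had another summit there, at rank 8172 and 55 bp from a TSS of ohgt, which is not part of the mean. At the Npc2e start site itself the pooled list had weaker summits, 105 bp upstream at rank 21603 and 397 bp downstream at rank 20728. Replicate 2 had summits 165 bp upstream at rank 14577 and 74 bp downstream at rank 22870, and replicates 1 and 3 had theirs 396 and 526 bp downstream, at ranks 17349 and 13928.

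Npc2c (FBgn0037783, from 10060252 to 10061136, plus strand) had no optimal or pooled peak by the rule. The peak between Npc2d and Npc2e was its nearest optimal summit, 5457 bp upstream and so just outside the 5 kb limit. Replicate 1 had 1 summit in the Npc2c region at rank 27800, 1131 bp downstream of the TSS, replicate 2 had 1 at rank 29688, 4418 bp upstream, and replicate 3 had none. These summits were at different places.

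Npc2g (FBgn0039800, from 30744605 to 30745263) and Npc2h (FBgn0039801, from 30745479 to 30746290) are a second neighbouring pair on 3R, both on the minus strand and 215 bp apart. Npc2h, like Npc2e, is known for binding bacterial cell wall compounds. Neither had an optimal peak, and the nearest optimal summit was 5614 bp from the TSS of Npc2g and 6641 bp from that of Npc2h. The pooled list, however, held a peak at rank 7999, just below the 7993 of the optimal set. It lay 962 bp upstream of Npc2h and 1989 bp upstream of Npc2g (from 30747054 to 30747449), and 80 bp upstream of the TSS of the long non-coding RNA gene CR43238. Every replicate had it, at ranks 8666, 9640 and 7799, a mean of 8702 ± 921 (SD, n = 3), with summits 15, 26 and -20 bp from the pooled one. Only replicate 3 placed it among its 7993 strongest. A further pooled summit at rank 9751, downstream of both genes, was also in all 3 replicates, at ranks 11429, 17074 and 9726. It lay 3701 bp from the TSS of Npc2g and 4728 bp from that of Npc2h. The nearest TSS was that of CG15543, with the summit 1318 bp upstream of it.

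**Figure D3:**
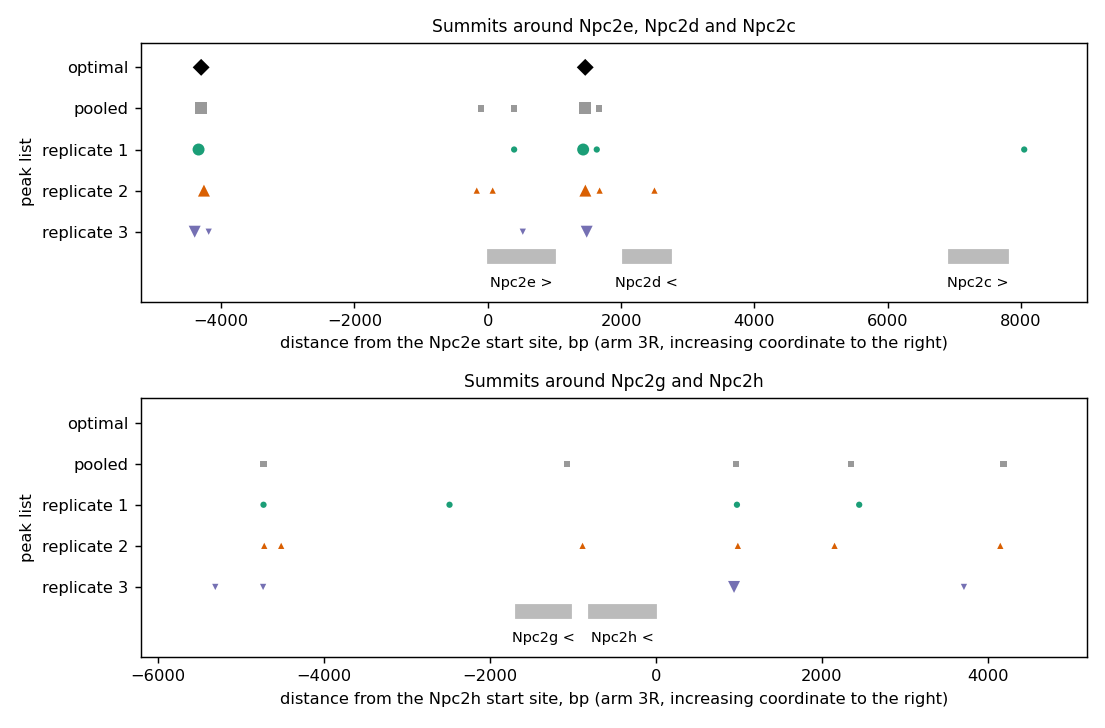
Summits of the 5 lists around Npc2e, Npc2d and Npc2c (top) and around Npc2g and Npc2h (bottom), by distance in bp from the TSS of Npc2e or Npc2h along arm 3R. Grey bars are gene bodies with their direction, and large symbols are peaks among the 7993 strongest of a list. In the top panel all 5 lists have a strong summit in the 1007 bp gap between Npc2e and Npc2d. In the bottom panel 4 lists have a summit about 962 bp to the right of the Npc2h start, with the optimal list empty. The pooled and optimal lists were made from the same 3 replicates.

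Npc2f (FBgn0039154, 3R from 24137895 to 24140936, plus strand) had the strongest peak near any member. The peak (3R from 24141010 to 24141424) had rank 154 in the optimal set, and ranks of 170, 120 and 196 in the replicates, a mean of 162 ± 38.6 (SD, n = 3). Its summits in the replicates were within 13 bp of the optimal one. The summit lay 290 bp beyond the 3' end of Npc2f and 3331 bp from its TSS. It was 169 bp upstream of the TSS of Kal1, the fly counterpart of the human Kallmann syndrome gene, which lies next to Npc2f on the same strand. The Npc2f gene body held 5 pooled summits, with ranks from 16348 to 27557, and the nearest to its start was 670 bp downstream at rank 22791.

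**Figure D4:**
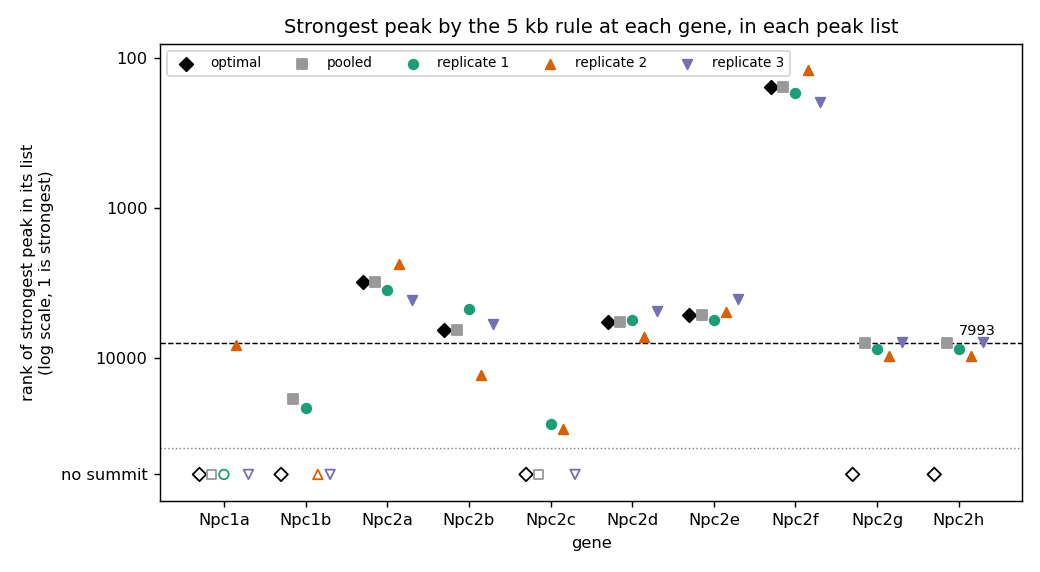
Rank of the strongest peak given to each gene in each of the 5 lists, on a log axis with the strongest at the top. Open symbols mark lists with no summit, and the dashed line is rank 7993. Npc2f stands apart at ranks 120 to 196, Npc2a, Npc2d and Npc2e lie above the line in all 3 replicate lists, and Npc1a has a summit in replicate 2 only. The optimal list holds 7993 peaks, so its peaks cannot fall below the line.

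Weaker peaks reached more of the family, as they did of all protein-coding genes. In the pooled list 8 of the 10 genes had a summit (background 74.8%), all but Npc1a and Npc2c. The count was 9 in replicate 1 (background 82.5%), 9 in replicate 2 (background 70.9%) and 7 in replicate 3 (background 80.8%). A summit was present in all 3 replicate lists for 7 genes, Npc2a, Npc2b and Npc2d to Npc2h (7 of 10, background 64.1%). With the lists limited to their 7993 strongest peaks, 4 remained, Npc2a, Npc2d, Npc2e and Npc2f (background 47.9%). For Npc2b the strongest summits of replicates 1, 2 and 3 ranked 4734, 12915 and 5979. They lay 543, 1255 and 582 bp upstream of the TSS, so that of replicate 2 was at another place. The pooled list had a summit inside the gene body of 5 members (background 32.9%), none stronger than rank 16348. It had a summit within 500 bp of a TSS at 4, Npc2a, Npc2b, Npc2e and Npc2g (background 47.8%). Npc2g entered both counts through a summit 43 bp downstream of its TSS, at rank 26191. No replicate list had a summit within 150 bp of that one. The strongest optimal peak of the 5 genes that had one had a median rank of 5180, against 2413.5 over all protein-coding genes with one. Among these peaks, those at ranks 154, 3103 and 5180 were nearest to a TSS of Kal1, Got2 and ohgt. The value over all genes covers genes of all lengths. Of the 7 optimal peaks, 6 had a summit within 150 bp in all 3 full replicate lists, as did 92.1% of all optimal peaks. The exception was the Npc2b peak, and without replicate 2 all 7 were found.

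Other genes of sterol handling were counted by the same rule. Of 9 genes for lysosomal or intracellular sterol handling, 6 had an optimal peak. The strongest was that of Hr96, a nuclear receptor that controls genes of dietary sterol and fat uptake, at rank 612 and 120 bp upstream of the TSS. CG3860, an oxysterol-binding protein family gene, followed at rank 1385 (204 bp upstream), and ScpX, a sterol carrier protein and thiolase gene, at rank 2131 (417 bp upstream). An optimal summit lay within 500 bp of a TSS for 4 of these 9 (background 28.7%). With peaks assigned to the nearest TSS, 3 of the 9 kept one, CG3860, Orp8 and Lip4 (background 29.6%). The peaks of Hr96 and ScpX were nearer to a TSS of another protein-coding gene. Among other genes whose products carry a sterol-sensing domain, as the Npc1 proteins do, disp, which releases the Hedgehog ligand, had an optimal peak at rank 3123. The peak was also nearer to a TSS of another protein-coding gene. Its summit lay 144 bp upstream of a TSS of disp. Replicates 1 and 3 had summits 121 and 132 bp upstream, at ranks 2071 and 3175. Replicate 2 had none there, and its only summit at disp was 4287 bp upstream at rank 20032. The Hedgehog receptor gene ptc had 7 optimal peaks. The strongest, at rank 3652, lay inside the gene body, 10093 bp downstream of the nearest TSS of ptc. The strongest ptc summits of replicates 1, 2 and 3 were at different places, 10056, 4804 and 983 bp downstream. The background for the 5 kb rule was 55.7%, as above, and no difference between these genes and the Niemann-Pick genes was tested.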

How the data were processed

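Peak lists of 3 biological replicates were analysed, with replicate numbers taken from the labels, and the size range of the fragments was 200 to 800 bp, per the labels. Per the deposited notes, the authors used dm6 and made narrowPeak lists for each replicate and for all 3 pooled. From these lists they derived an optimal set by agreement between replicates (irreproducible discovery rate, IDR). The sources used here name no aligner, peak caller or IDR threshold. The deposited signal value has no stated scale and ranked peaks within a list only.

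Gene models came from Ensembl release 115 on BDGP6 (dm6 coordinates) and sequence from RefSeq's copy of that assembly. Coordinates count from 1. Peaks of different lists were matched when summits lay within 150 bp, taking the nearest. Motifs were searched within 50 bp of summits. Assignment of peaks was checked on simulated summits at 200 genes. Python 3.11.15, numpy and pandas were used. All 10 members are named, with the genes nearest to a member's peak. Of each other list, up to 3 genes with the strongest optimal peaks are named. For sterol handling, the genes that kept a peak by nearest TSS are named as well. CG5077 and CG42668, listed separately, are both older names of Orp8 and counted once. The list of sterol-sensing domain genes is not counted, since 1 result in it is not reported here. Members, lists and rules were chosen with earlier results of these data known. The replicates are separate biosamples of 1 line, and SDs cover these samples.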

Additional observations from a re-analysis of the deposited data

How the results depend on the processing

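The count of 5 members and 7 peaks depended on the rule. It was 8 members and 13 peaks within 10 kb of a TSS, 0 and 0 in the gene body alone, 2 and 2 in the 3996 strongest optimal peaks, and 3 and 4 when peaks counted only for the nearest TSS. Within 2 kb, by interval overlap, by the 5' end of the gene, without the gene body, or with a match in all 3 replicates, 4 to 5 members and 5 to 8 peaks were found. Without peaks at promoters (500 bp) of other protein-coding genes, an alternative chosen after seeing the data, 4 members were left. Optimal summits within 1000 bp of a TSS were found for 2 members. No background is given for this rule or the rule before it. The same holds for interval overlap, the 5' end of the gene, the rule without the gene body and the match in all 3 replicates. The 7 members with a summit in every replicate list fell to 4 in the 7993 strongest peaks. The 6 other sterol handling genes became 3 by nearest TSS. The background of 55.7% was 53.8% over all annotated genes, 40.8% within 2 kb and, chosen after seeing the data, 52.6% for regions no longer than the longest of the members. Leaving out each replicate gave 6 to 7 shared peaks and 7 to 8 members. No paired analysis was possible because the 3 samples form 1 group. With no reads in the lists, an absent peak is not shown to be absent binding.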
